A study of Mus musculus with 13 samples.

Results

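The genes described here code for the initiation and elongation factors of cytosolic protein synthesis, with their inhibitors, a kinase and methyltransferases that carry the same symbols. They were taken from a table of raw counts as every symbol beginning with Eif or Eef and a digit, other than the eIF2 kinases Eif2ak1 to Eif2ak4, with at least 10 counts summed over 13 libraries. The pattern matched 69 symbols. With the 4 kinases set aside and Eif4e1b left out at 0 counts, 64 genes remained of 21868 in the table. The members with the fewest counts were Eef1akmt3 with 95, Eef1a2 with 189, and Eif2b3 and Eif5a2 with 209 each. All 64 were among the 14300 genes that could be tested. The rule used counts only to set that minimum. Eif3f was singled out with results of these libraries already known, so its levels are given as a description and its differences without a p-value. It is included where members are counted, and nothing is drawn from its own call.

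The libraries came from mouse jejunal epithelial cells, sorted as EpCAM+ cells lacking B220, CD3, CD11b and CD45, and their polyadenylated RNA was sequenced. BSF mice (2 libraries) skipped breakfast and were fed from ZT16 to ZT24, where ZT is the hour of the light cycle. BSF_C (3 libraries) is labelled as the breakfast skipping pattern together with control, and the labels say no more of it. LSF mice (3 libraries) skipped lunch, with food at ZT12 to ZT16 and again at ZT20 to ZT24, and DSF mice (2 libraries) skipped dinner, with food from ZT12 to ZT20. The controls (con) had 3 libraries. BSF, LSF and DSF feeding lasted 2 weeks. The feeding hours of BSF_C and con, the hour of sampling, and the strain and age of the mice are not in the labels, nor is it stated whether a library is 1 mouse, so p-values measure the spread between these libraries.

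Every cell makes protein in the same order of steps, and intestinal epithelium, which renews itself quickly and secretes and absorbs, makes much of it. eIF2 carries the initiator tRNA to the small ribosomal subunit and eIF2B recharges eIF2 with GTP. eIF3 is the large scaffold on that subunit, and eIF4E, eIF4G and eIF4A bind the cap of the message and unwind its leader. eIF1, eIF1A, eIF5 and eIF5B select the start codon and join the subunits. eEF1 then delivers aminoacyl-tRNAs, eEF2 moves the ribosome along, and the 4E-BP inhibitors and the eEF2 kinase slow initiation and elongation. Nutrients act on many of these steps through the kinase mTORC1, and messages that begin with a C and a run of pyrimidines, the TOP motif, are known to be translated under its control.

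Sequence at the start of the eIF3 genes is shown because Eif3f, whose level differed most from con among them, begins with such a run, and Eif3a, Eif3b and Eif3c, which also rose, do not. Each line is a RefSeq sequence on GRCm38.p6, from 30 bases before the annotated start to the first 15 transcribed bases, and capitals mark a C at the start with the pyrimidines that follow it.
Eif3f: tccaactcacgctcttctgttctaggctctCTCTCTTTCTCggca
Eif3b: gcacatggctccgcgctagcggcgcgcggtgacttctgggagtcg
Eif3a: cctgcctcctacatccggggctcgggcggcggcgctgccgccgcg
Eif3c: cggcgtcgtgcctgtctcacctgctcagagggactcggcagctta
The Eif3f window lies at chr7:108934385-108934429 on the plus strand, and its run is 11 bases long. The others lie at chr5:140419275-140419319 on the plus strand for Eif3b, chr19:60790679-60790723 on the minus strand for Eif3a and chr7:126566352-126566396 on the minus strand for Eif3c. A C at the start followed by at least 4 bases of C or T, read on the transcribed strand, was found in 2 of the 49 members with an entry (4.08%), Eif3f and Eif2s3x. Eif2s3x was lower than con in all 4 groups. The same was found in 813 of 27025 genes (3.01%). The match is a description of the annotated start, and starts in use in these cells may differ. Of the 9 members listed as TOP messages from textbook knowledge, 5 had a start entry and the motif was found in 1. Its absence from an annotated start, as in Eif3a, Eif3b and Eif3c, therefore says little. No link between the motif and the message levels was tested.

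The con libraries stood apart from the other 10. They held 4851239 to 5202146 counts, against 7127769 to 8589351 in the others, and 67.7% to 73.0% of all genes tested differed between a feeding group and con. The level of a gene is given below in CPM, counts scaled to a common library size with trimmed means. Summed markers of epithelium, all 10 detected, were 7480 to 7550 CPM in BSF, 7540 to 7900 in BSF_C, 8680 to 8740 in LSF, 7630 to 7840 in DSF and 5330 to 5930 in con. Markers of skin summed to 498 to 600 CPM in con and to at most 6.32 CPM elsewhere, with Calm4, Krtdap and Ivl at 0 in all 10 other libraries. Leukocyte markers summed to 246 to 265 CPM in BSF, 262 to 282 in BSF_C, 396 to 407 in LSF, 399 to 404 in DSF and 37.6 to 45.8 in con, where Cd3g and Cd2 were at 0. Markers of stem and cycling crypt cells summed to 2710 to 2840 CPM in BSF, 2660 to 2710 in BSF_C, 2010 to 2030 in LSF, 2600 to 2660 in DSF and 3750 to 3970 in con. Their part in the differences from con was not tested, and a batch of con libraries cannot be told apart from the con group. In such bulk libraries, fewer cells of a type and less RNA per cell cannot be told apart. The 4 comparisons with con share the con libraries, so they are not independent of each other, and the comparisons among feeding groups do not use con.

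Together the 64 genes took 2.28% to 2.37% of counts in BSF, 2.32% to 2.37% in BSF_C, 2.43% to 2.44% in LSF, 2.45% to 2.52% in DSF and 2.15% to 2.27% in con. Eef1a1, the factor that delivers aminoacyl-tRNA, alone made up 50.3% to 52.9% of those counts, and Eef2 17.9% to 21.9%. Per length, Eef1a1 averaged 4851 and Eef2 1378 RPKM (CPM per kilobase of exon), taken as the mean of the 5 group means. Eif5a, which relieves stalled ribosomes, followed with 251.6 RPKM, Eif4h, a partner of the eIF4A helicase, with 125.4 and Eif4b, another such partner, with 110.0 RPKM.

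A gene was called when its adjusted p was at most 0.05 in the quasi-likelihood test of edgeR (two-sided, Benjamini-Hochberg adjustment over 14300 genes). Against con, 45 of the 64 members were called in BSF (70.3%, against 70.2% of all genes), 47 in BSF_C (73.4%, against 73.0%), 44 in LSF (68.8%, against 72.0%) and 39 in DSF (60.9%, against 67.7%). The number called was therefore near that of genes at large and is no result about these genes. The members called higher were 29 in BSF (45.3%, against 38.3% of all genes), 32 in BSF_C (against 39.8%), 28 in LSF (43.8%, against 38.9%) and 29 in DSF (45.3%, against 36.6%). The members called lower were 16 in BSF (25%, against 31.9%), 15 in BSF_C (23.4%, against 33.2%), 16 in LSF (25%, against 33.0%) and 10 in DSF (15.6%, against 31.1%). The median log2 fold change of the members was 0.23 for BSF, 0.27 for BSF_C, 0.15 for LSF and 0.27 for DSF, and that of all genes was 0.11 for BSF, 0.12 for BSF_C, 0.10 for LSF and 0.10 for DSF. Of the 64, 24 were higher and 9 lower than con in all 4 groups, 10 were called in none, and Eef2 and Eif1 were called in opposite directions in different groups. The share of all genes with such patterns was not counted, and the 4 comparisons share the con libraries. These counts are therefore no result about the members. Scaling by library totals alone moved the median of all genes to 0.29 for BSF, 0.28 for BSF_C, 0.20 for LSF and 0.26 for DSF.

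**Figure D1:**
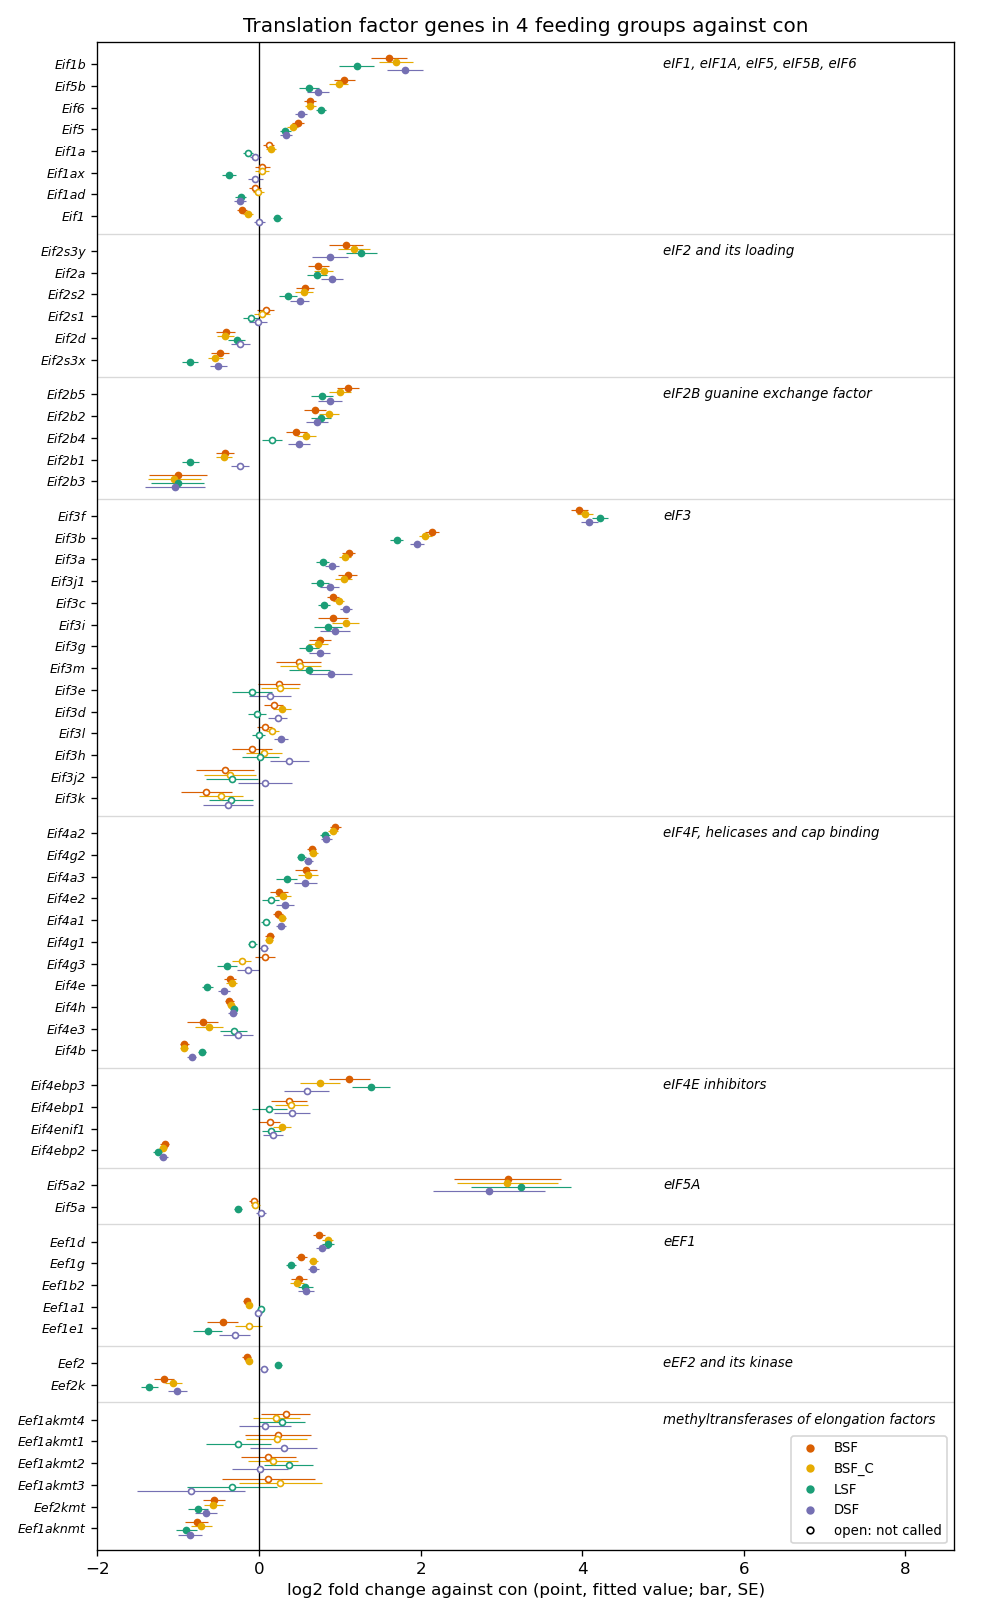
Fitted log2 fold change against con (horizontal axis) of 63 members, grouped by role, in BSF, BSF_C, LSF and DSF, where a filled point is a called difference, an open point is not called and a bar is the SE. Eef1a2, with 0 counts in con, is not drawn. Eif3f stands at 3.96 to 4.22, Eif3b at 1.70 to 2.14, and Eif4ebp2, Eif4b and Eef2k lie below 0 in all 4 groups.

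Of the 14 eIF3 subunit genes, 7 were higher than con for BSF, 8 for BSF_C, 8 for LSF and 9 for DSF, and none was called lower in any of the 4, where 36.6% to 39.8% of all genes were higher and 31.1% to 33.2% lower. Eif3f is among the genes counted, and without it 6 of 13 were higher for BSF, 7 for BSF_C, 7 for LSF and 8 for DSF. Of those not called, some lay below 0, such as Eif3j2 at -0.42 ± 0.35 and Eif3h at -0.08 ± 0.25 in BSF. Without Eif3f the median log2 fold change of the other 13 was 0.49 for BSF, 0.51 for BSF_C, 0.62 for LSF and 0.75 for DSF. The sum of those 13 was 604.6 to 618.9 CPM in BSF, 607.0 to 622.7 in BSF_C, 513.5 to 530.9 in LSF, 586.5 to 625.4 in DSF and 318.3 to 329.6 in con, with no overlap between con and the rest.

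Eif3f codes for a subunit outside the part of eIF3 that budding yeast also has, and the gene lies at chr7:108934417-108942951 (GENCODE M21, GRCm38, plus strand). It was read at 155.7 and 150.2 CPM in BSF, at 172.1, 154.9 and 155.8 in BSF_C, at 188.4, 174.7 and 185.4 in LSF and at 169.6 and 163.9 in DSF. In con it was read at 10.32, 9.98 and 8.98 CPM. All 10 libraries of the feeding groups were above all 3 of con, by a log2 fold change of 3.96 ± 0.10 (SE) for BSF, 4.04 ± 0.10 for BSF_C, 4.22 ± 0.10 for LSF and 4.09 ± 0.10 for DSF. Ordered by log2 fold change among 14300 genes, Eif3f ranked 733 for BSF, 738 for BSF_C, 746 for LSF and 710 for DSF, so many genes rose more. None of its exon sequence was shared with another annotated gene in windows of 50, 100 or 150 bases.

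Within the complex, Eif3f took 19.5% and 20.5% of eIF3 counts in BSF libraries, 19.9% to 21.8% in BSF_C, 25.4% to 26.6% in LSF and 21.3% to 21.8% in DSF. In con it took 3.13% (Wilson 95% interval 2.38% to 4.11%), 2.94% (2.22% to 3.88%) and 2.74% (2.01% to 3.73%), intervals that cover counting error only. Per length it was the first of the 14 subunit genes in all 10 feeding libraries and the eighth or ninth in con. Its RPKM was 7.91 and 9.0 times the median of the other 13 in BSF, 7.87 to 8.63 times in BSF_C, 10.9 to 13.1 times in LSF, 8.71 to 9.24 times in DSF and 0.64 to 0.97 times in con. These shares and ranks describe Eif3f, which was singled out with results known, and no conclusion about the complex is drawn from them.

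The genes whose pattern over the 13 libraries was most like that of Eif3f, by Pearson's r of log2(CPM + 1), were Espn (0.9981), Cebpb (0.9979), Fbln1 (0.9974), Adora2b (0.9971) and Mmp11 (0.997). Espn averaged 138.6 CPM in BSF, 142.1 in BSF_C, 165.7 in LSF, 140.4 in DSF and 23.2 in con. Cebpb averaged 124.3 CPM in BSF, 133.0 in BSF_C, 142.6 in LSF, 140.7 in DSF and 0.999 in con. None of the 5 is a translation factor, and with con apart from the rest such values describe little more than the level in con against that in the others.

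Eif3b (chr5:140419328-140443360) codes for a core subunit that binds the small ribosomal subunit. It was read at 151.3 and 137.0 CPM in BSF, at 137.4, 136.4 and 133.8 in BSF_C, at 103.6, 101.6 and 114.1 in LSF and at 131.8 and 121.9 in DSF. In con it was read at 31.38, 31.40 and 35.47 CPM. No feeding library overlapped con, and the log2 fold change was 2.14 ± 0.09 in BSF (edgeR adjusted p = 5.85e-29), 2.06 ± 0.08 in BSF_C (1.54e-29), 1.70 ± 0.08 in LSF (1.88e-25) and 1.96 ± 0.09 in DSF (8.8e-27). It was next to Eif3f in size among the subunits. Eif3a, the scaffold subunit, was 1.11 higher in BSF on the log2 scale, 1.07 in BSF_C, 0.79 in LSF and 0.90 in DSF. Eif3c, its partner in the scaffold, was 0.92 higher for BSF, 0.99 for BSF_C, 0.80 for LSF and 1.08 for DSF.

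The subunit genes were then split by whether budding yeast has the subunit, a split made after the values were seen. Of the 7 that it has (Eif3a, Eif3b, Eif3c, Eif3g, Eif3i, Eif3j1 and Eif3j2), 6 were higher than con in each of the 4 groups, with medians of 0.92 for BSF, 1.05 for BSF_C, 0.79 for LSF and 0.90 for DSF. Eif3j2 was the exception, and it shares 83.99% of its exon sequence with other genes in windows of 100 bases, as Eif3j1 shares 44.15%, so reads of this pair may be split between them. Of the other 7 (Eif3d, Eif3e, Eif3f, Eif3h, Eif3k, Eif3l and Eif3m), 1 was higher for BSF, 2 for BSF_C, 2 for LSF and 3 for DSF. Their medians were 0.18 for BSF, 0.26 for BSF_C, 0.00 for LSF and 0.27 for DSF. Eif3e, Eif3h and Eif3k, all 3 read at under 10 CPM, were called in no comparison with con, and their intervals are wide. Eif3k, for example, had a log2 difference of -0.65 ± 0.31 in BSF. Eif3f, singled out with results known, is among the genes counted as higher in the second set in each of the 4 groups. Among all genes, 36.6% to 39.8% were higher than con in these comparisons, with medians of 0.10 to 0.12. Nothing is drawn from this split.

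**Figure D2:**
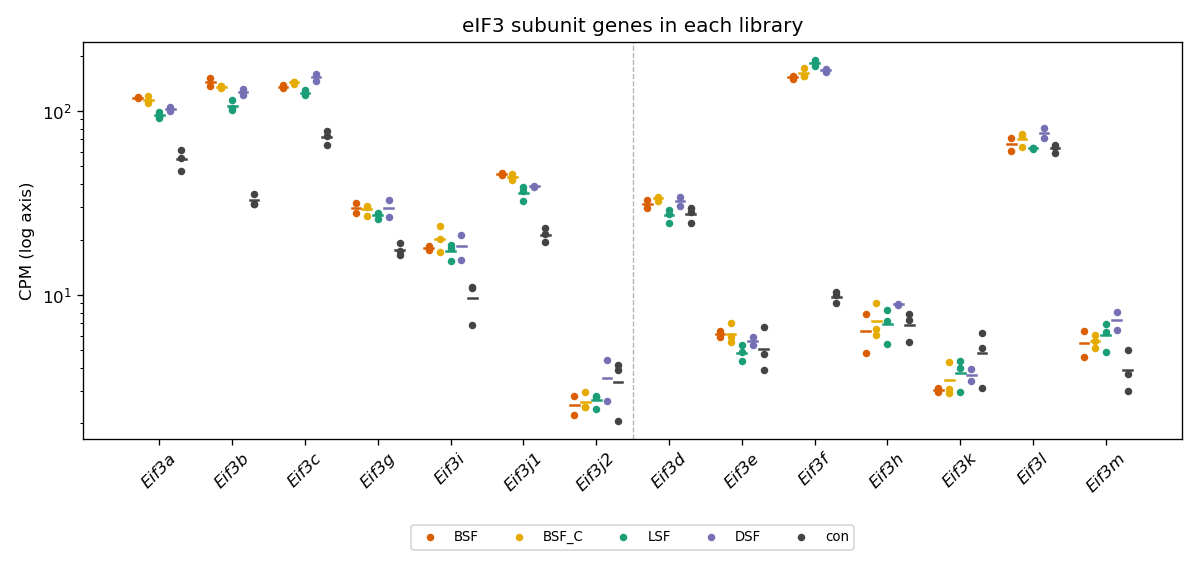
CPM on a log axis of the 14 eIF3 subunit genes in each of 13 libraries (points) with the group mean (short lines), in the order BSF, BSF_C, LSF, DSF and con from left to right within each gene. The dashed line parts the subunits shared with budding yeast, on the left, from the others, and Eif3f lies at 150.2 to 188.4 CPM in the feeding libraries, against 8.98 to 10.32 CPM in con.

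Among the cap-binding and helicase factors, called genes went both ways. Of 11 genes, 6 were higher and 4 lower than con in BSF and in BSF_C, 3 were higher and 4 lower in LSF, and 5 were higher and 3 lower in DSF, which is not far from the shares of all genes (36.6% to 39.8% higher and 31.1% to 33.2% lower). Eif4b was read at 393.7 and 408.4 CPM in BSF, at 407.4, 406.6 and 390.4 in BSF_C, at 456.0, 462.3 and 479.5 in LSF and at 432.6 and 422.9 in DSF. In con it was read at 750.9, 764.3 and 771.7 CPM. All 10 feeding libraries were below con, and Eif4b fell by 0.93 ± 0.06 on the log2 scale in BSF (edgeR adjusted p = 2.79e-21), by 0.93 ± 0.05 in BSF_C (9.19e-24), by 0.71 ± 0.05 in LSF (3.94e-19) and by 0.83 ± 0.06 in DSF (1.99e-19).

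Eif4e, the cap-binding protein itself, fell by 0.35 in BSF, by 0.34 in BSF_C, by 0.64 in LSF and by 0.43 in DSF. Eif4h was read at 658.6 and 635.2 CPM in BSF, at 667.0, 657.1 and 650.9 in BSF_C, at 695.8, 665.1 and 653.9 in LSF, at 666.5 and 665.6 in DSF and at 849.6, 790.5 and 868.6 in con. Its feeding libraries were likewise all below con, by 0.37 for BSF, 0.34 for BSF_C, 0.32 for LSF and 0.33 for DSF on the log2 scale. Eif4a2, a helicase paralog of Eif4a1, rose by 0.94 in BSF, by 0.91 in BSF_C, by 0.81 in LSF and by 0.83 in DSF. Eif4g2, a relative of eIF4G that lacks its eIF4E site, rose by 0.65 in BSF, by 0.67 in BSF_C, by 0.53 in LSF and by 0.61 in DSF.

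Eif4ebp2 (chr10:61428491-61452661), which codes for a 4E-BP that holds eIF4E away from eIF4G, was the most abundant of the 4 inhibitors of eIF4E. It was read at 462.5 and 421.7 CPM in BSF, at 446.9, 432.5 and 425.7 in BSF_C, at 423.2, 418.6 and 405.3 in LSF, at 434.0 and 439.2 in DSF and at 959.9, 959.2 and 1061 in con. The lowest con library was above every other library, and Eif4ebp2 fell by 1.17 ± 0.06 in BSF (edgeR adjusted p = 1.05e-24), by 1.19 ± 0.05 in BSF_C (8.5e-28), by 1.26 ± 0.05 in LSF (6.82e-29) and by 1.19 ± 0.06 in DSF (7e-25). Per 100 counts of Eif4e, there were 442 to 528 of Eif4ebp2 in BSF, 445 to 492 in BSF_C, 516 to 573 in LSF, 482 to 526 in DSF and 799 to 916 in con.

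The other inhibitors did not follow it. Eif4ebp1 was called in no comparison with con, with log2 differences of 0.37 ± 0.22 for BSF, 0.40 ± 0.20 for BSF_C, 0.13 ± 0.21 for LSF and 0.41 ± 0.23 for DSF. Eif4ebp3 was read at 8.21 and 7.69 CPM in BSF, at 6.63, 6.32 and 5.51 in BSF_C, at 11.23, 7.84 and 9.57 in LSF, at 6.11 and 4.88 in DSF and at 3.10, 3.54 and 4.38 in con. It was higher than con in BSF (1.12 ± 0.26), BSF_C (0.75 ± 0.25) and LSF (1.39 ± 0.23), and its DSF libraries, also above con, gave 0.59 ± 0.28 (edgeR adjusted p = 0.0553). In windows of 100 bases, 62.79% of its exon sequence is also that of an annotated gene that runs through it, so its counts are uncertain.

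Eef2k codes for the kinase that inactivates eEF2, and it was read at 20.59 and 21.62 CPM in BSF, at 20.76, 24.70 and 23.26 in BSF_C, at 19.31, 20.81 and 15.81 in LSF and at 24.72 and 22.69 in DSF. In con it was read at 46.46, 50.53 and 46.53 CPM. The groups did not overlap con, and Eef2k fell by 1.18 ± 0.12 in BSF (edgeR adjusted p = 1.24e-12), by 1.06 ± 0.11 in BSF_C (4.93e-13), by 1.36 ± 0.11 in LSF (2.93e-16) and by 1.01 ± 0.12 in DSF (1.12e-10). Of the 6 methyltransferases of elongation factors, the same 2 genes were lower in all 4 groups and the other 4, all read at under 5 CPM, were called in none. Among all genes, 31.1% to 33.2% were lower in each comparison, and the share lower in all 4 was not counted.

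The 2 lower methyltransferase genes were Eef2kmt and Eef1aknmt, which act on eEF2 and eEF1A. Eef1aknmt was read at 15.75 and 18.72 CPM in BSF, at 16.58, 18.96 and 18.49 in BSF_C, at 17.14, 15.80 and 14.62 in LSF, at 14.18 and 18.60 in DSF and at 30.76, 24.74 and 33.63 in con. Eef2kmt was read at 18.98 and 20.06 CPM in BSF, at 20.88, 18.73 and 18.73 in BSF_C, at 15.93, 18.50 and 16.88 in LSF, at 19.77 and 16.62 in DSF and at 27.46, 26.61 and 32.48 in con. Neither overlapped con. Eef1aknmt fell by 0.77 for BSF, 0.72 for BSF_C, 0.90 for LSF and 0.85 for DSF, and Eef2kmt fell by 0.56 for BSF, 0.56 for BSF_C, 0.75 for LSF and 0.66 for DSF.

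**Figure D3:**
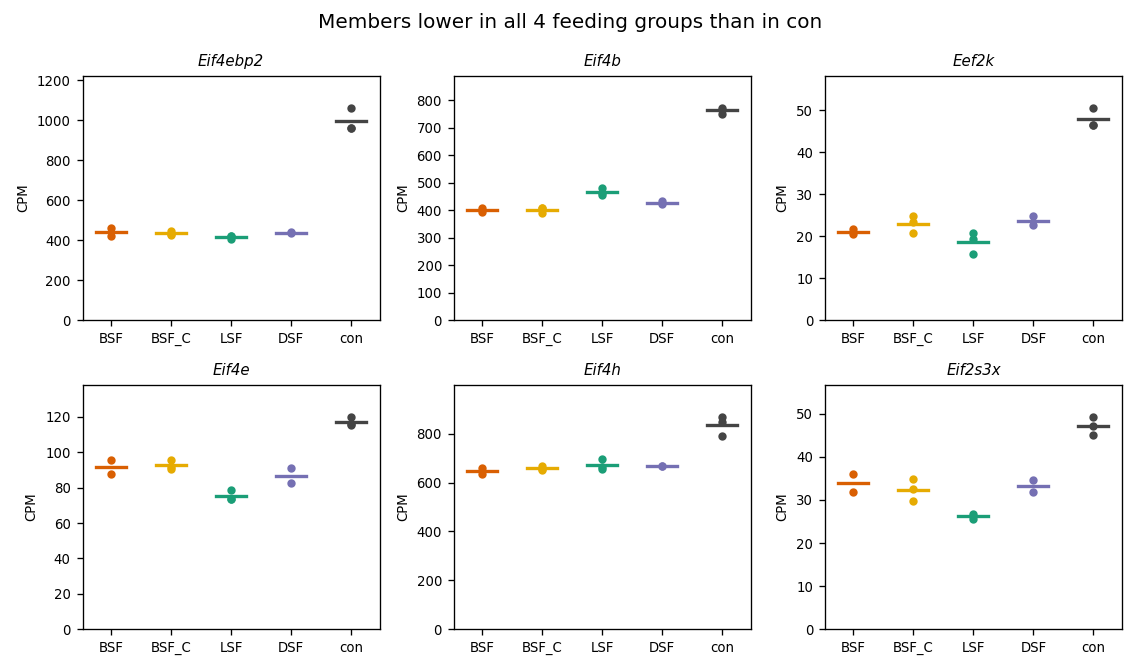
CPM of Eif4ebp2, Eif4b, Eef2k, Eif4e, Eif4h and Eif2s3x in each library (points) with group means (lines), by group from BSF to con. In all 6 panels the con points are the highest, at 959.2 to 1061 CPM for Eif4ebp2 against 405.3 to 462.5 CPM in the feeding groups.

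Of the 6 genes listed under eEF1 by their symbols, Eef1b2, Eef1d and Eef1g, the exchange-factor subunits, rose in all 4 groups. Eef1d rose by 0.74 in BSF, by 0.85 in BSF_C, by 0.85 in LSF and by 0.78 in DSF. Eef1b2 rose by 0.49 in BSF, by 0.47 in BSF_C, by 0.57 in LSF and by 0.58 in DSF. Eef1g rose by 0.52 in BSF, by 0.67 in BSF_C, by 0.40 in LSF and by 0.67 in DSF, and 32.42% of its exon sequence is shared with pseudogenes in windows of 100 bases.

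Eef1a2, a paralog of Eef1a1 known from muscle and neurons, had 0 counts in all 3 con libraries. It was read at 1.62 and 1.34 CPM in BSF, at 2.21, 1.76 and 2.82 in BSF_C, at 3.26, 2.57 and 3.19 in LSF and at 2.73 and 2.24 in DSF. Against the 3 counts over the group that a count of 0 allows in con (0.214 CPM), it was at least 6.82-fold higher in BSF, 10.5-fold in BSF_C, 14-fold in LSF and 11.6-fold in DSF. Markers of heart muscle summed to 103 to 106 CPM in BSF, 98.1 to 114 in BSF_C, 261 to 311 in LSF, 287 to 295 in DSF and 8.11 to 11.8 in con, where 6 of the 10 (Myh6, Actc1, Myl2, Myl3, Ryr2 and Nppa) were at 0. Markers of neurons and glia summed to 220 to 233 CPM in BSF, 226 to 240 in BSF_C, 170 to 181 in LSF, 168 to 173 in DSF and 225 to 256 in con. Of these 10 markers, Syt1 and Stmn2 were at 0 in con and in no other group. The part of the muscle and neuron markers in the Eef1a2 counts was not tested. Eif5a2, the less abundant paralog of Eif5a, had 4 con counts, all in replicate 2. Its level was 8.96 times that of con for BSF, 8.87 times for BSF_C, 9.93 times for LSF and 7.56 times for DSF.

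The eIF2 and eIF2B genes split by subunit. Of the 3 subunits of eIF2, Eif2s1 (alpha) was called in no group, Eif2s2 (beta) rose in all 4, and the X-linked gamma gene Eif2s3x fell in all 4. Eif2s2 was read at 37.96 and 40.34 CPM in BSF, at 35.13, 41.91 and 39.42 in BSF_C, at 33.07, 34.43 and 33.89 in LSF, at 34.87 and 40.24 in DSF and at 24.98, 29.94 and 24.19 in con. Its feeding libraries were all above con. It was higher by 0.57 for BSF, 0.56 for BSF_C, 0.35 for LSF and 0.51 for DSF on the log2 scale. Eif2s3x fell by 0.48 in BSF, by 0.54 in BSF_C, by 0.85 in LSF and by 0.51 in DSF, and 33.71% of its exon sequence is shared with pseudogenes. Its Y-linked copy Eif2s3y rose by 1.08 in BSF, by 1.17 in BSF_C, by 1.27 in LSF and by 0.88 in DSF. Eif2s3y was detected in all 13 libraries, at 5.30 CPM or more. Eif2a, which can deliver initiator tRNA in place of eIF2, rose by 0.73 in BSF, by 0.80 in BSF_C, by 0.72 in LSF and by 0.90 in DSF.

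Among the 5 subunits of eIF2B, Eif2b2 (beta) and Eif2b5 (epsilon, the catalytic subunit) rose in all 4 groups, Eif2b5 by 1.10 for BSF, 1.00 for BSF_C, 0.78 for LSF and 0.88 for DSF. Eif2b3 (gamma) was lower in all 4, at 1.43 to 2.38 CPM in the feeding groups and 2.91 to 4.84 CPM in con. Without con replicate 3 that call was lost in BSF (edgeR adjusted p = 0.0603) and in DSF (0.0546), as it was in BSF without BSF replicate 2 (0.0996) and in DSF without the DSF library marked S2 (0.151). Eif2b1 (alpha) was lower in BSF, BSF_C and LSF, and is described with the feeding groups.

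Of the 8 genes for start-site selection and subunit joining, Eif1b, Eif5, Eif5b and Eif6 were higher in all 4 groups. Eif5b rose by 1.06 in BSF, by 0.99 in BSF_C, by 0.61 in LSF and by 0.73 in DSF. Eif6, which keeps the ribosomal subunits apart, rose by 0.63 in BSF, by 0.63 in BSF_C, by 0.77 in LSF and by 0.52 in DSF. Eif5, the GTPase activator of eIF2, was read at 241.7 and 240.7 CPM in BSF, at 221.7, 234.1 and 237.0 in BSF_C, at 206.2, 226.4 and 219.5 in LSF, at 224.8 and 212.2 in DSF and at 173.8, 202.3 and 142.1 in con. Eif1b, a paralog of Eif1, was read at 10.90 and 13.48 CPM in BSF, at 12.16, 12.76 and 14.08 in BSF_C, at 10.86, 8.35 and 8.51 in LSF, at 13.53 and 14.51 in DSF and at 3.30, 4.78 and 3.92 in con. No feeding library of either gene overlapped con. Eif5 was higher by 0.48 for BSF, 0.41 for BSF_C, 0.33 for LSF and 0.34 for DSF. Eif1b was higher by 1.61 ± 0.23 in BSF (edgeR adjusted p = 9.82e-09), 1.70 ± 0.21 in BSF_C (2.66e-10), 1.21 ± 0.22 in LSF (3.07e-06) and 1.80 ± 0.22 in DSF (3.6e-10).

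Members called in some groups and not in others were mostly small differences. The 10 called higher in 1 to 3 groups were Eif1a, Eif2b4, Eif3d, Eif3l, Eif3m, Eif4a1, Eif4e2, Eif4ebp3, Eif4enif1 and Eif4g1. The 9 called lower in 1 to 3 groups were Eef1a1, Eef1e1, Eif1ad, Eif1ax, Eif2b1, Eif2d, Eif4e3, Eif4g3 and Eif5a. The 10 called in none were Eef1akmt1, Eef1akmt2, Eef1akmt3, Eef1akmt4, Eif2s1, Eif3e, Eif3h, Eif3j2, Eif3k and Eif4ebp1. Of those, Eif2s1 was the best measured, at 29.77 to 35.10 CPM in the feeding libraries and 30.97 to 34.72 CPM in con.

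In several pairs of paralogs the proportions differed from con. Per 100 counts of Eif4a1 there were 51.8 and 56.7 of Eif4a2 in BSF, 47.1 to 57.4 in BSF_C, 52.7 to 56.8 in LSF, 47.7 and 50.7 in DSF and 28.9 to 36.5 in con. Per 100 counts of Eif1 there were 5.94 and 7.40 of Eif1b in BSF, 6.10 to 7.37 in BSF_C, 3.34 to 4.42 in LSF, 5.98 and 7.33 in DSF and 1.65 to 2.25 in con. In each pair, con was below every other library. The start-codon factors Eif1ax and Eif1a kept closer proportions, with 43.4 and 44.6 of Eif1ax per 100 of Eif1a in BSF, 39.8 to 45.4 in BSF_C, 37.7 to 41.3 in LSF, 45.1 and 47.8 in DSF and 44.7 to 48.4 in con. These are ratios of counts, not per length. In windows of 100 bases, 22.63% of the exon sequence of Eif4a1 and 5.85% of that of Eif4a2 is shared with other annotated genes. Their ratio is less certain for that reason.

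**Figure D4:**
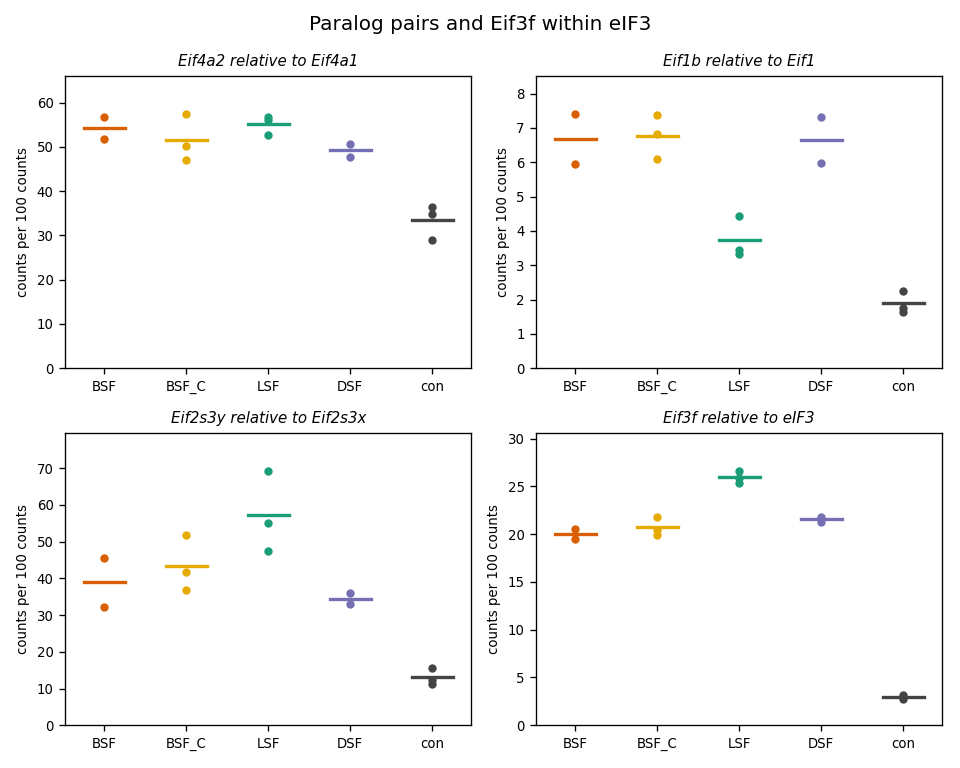
Counts of Eif4a2, Eif1b, Eif2s3y and Eif3f per 100 counts of Eif4a1, Eif1, Eif2s3x and all 14 eIF3 genes, in each library (points) with group means (lines), by group from BSF to con. Con is lowest in all 4 panels, at 2.74 to 3.13 for Eif3f within eIF3 against 19.5 to 26.6 elsewhere, and LSF is lowest of the feeding groups for Eif1b.

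Among the feeding groups themselves, where con plays no part in the contrast, 27 of the 64 members differed (42.2%, against 35.3% of all genes) in edgeR's quasi-likelihood test of BSF, BSF_C, LSF and DSF together. Eef2 had the smallest adjusted p (1.74e-09), followed by Eif1 (7.95e-08), Eif3b (1.65e-06) and Eif2b1 (8.43e-05). Without LSF replicate 1, 2 or 3 the number was 21.

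BSF was compared with the mean of LSF and DSF to ask what sets skipping breakfast apart from skipping the other meals. In that comparison 15 members were called (23.4%, against 21.4% of all genes), 10 higher (against 9.87% of all genes) and 5 lower (against 11.5%). The median log2 difference was 0.06 over the members and 0.00 over all genes. Eef2, Eif1, Eef1a1, Eif4b and Eif3f were lower in BSF, and Eif5b, Eif4g3, Eif3b, Eif3j1, Eif3a, Eif1ax, Eif1a, Eif4e, Eif1ad and Eif4g1 were higher. A difference from this mean can rest mostly on LSF or on DSF alone. Eif1ax averaged 59.61 CPM in BSF, 56.21 in DSF and 44.7 in LSF. Eif4e averaged 91.51 CPM in BSF, 86.83 in DSF and 75.26 in LSF. By contrast, Eif1ad averaged 110.7 CPM in BSF, 97.52 in DSF and 98.33 in LSF. The Eif1ad call was lost with DESeq2 size factors (edgeR adjusted p = 0.0624) and with each LSF library left out (0.0559 to 0.0666). Without BSF replicate 2 its log2 difference was 0.128. The comparison rests on 2 BSF libraries, and leaving out either of them left 4 members called. Without the DSF library marked S2, 9 were called, and with totals alone 14 were higher and 3 lower.

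Eef2 (chr10:81176631-81182498), the translocase of the ribosome, was read at 4213 and 3964 CPM in BSF, at 4335, 4176 and 3968 in BSF_C, at 5390, 5368 and 5336 in LSF, at 4840 and 4650 in DSF and at 4328, 4238 and 5070 in con. Both BSF libraries lay below all LSF and DSF libraries, by 0.30 ± 0.05 on the log2 scale (edgeR adjusted p = 3.88e-06), and the call was kept with each library left out. The 3 LSF libraries were above both of DSF, by 0.18 ± 0.05 (adjusted p = 0.0131, and 0.21 without the DSF library marked S3). Against con, Eef2 was called lower in BSF (-0.15 ± 0.05) and in BSF_C (-0.13 ± 0.05) and higher in LSF (0.24 ± 0.05), and with scaling by totals alone the sign turned in BSF (0.03) and in BSF_C (0.04). The BSF libraries lay just below con and those of BSF_C overlapped it. The BSF call was lost without con replicate 3 (-0.07, edgeR adjusted p = 0.0702) and without BSF replicate 2 (0.14). That in BSF_C was lost without con replicate 3 (-0.04, 0.208) and without BSF_C replicate 3 (0.0715).

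Eif1, which keeps the scanning ribosome open until it meets a start codon, had the same order. It was read at 183.5 and 182.3 CPM in BSF, at 199.4, 186.9 and 191.0 in BSF_C, at 245.8, 249.8 and 247.2 in LSF, at 226.2 and 197.9 in DSF and at 199.7, 212.7 and 223.0 in con. BSF was below LSF and DSF by 0.33 ± 0.06 (edgeR adjusted p = 3.28e-05), a call kept with each library left out. LSF was above DSF by 0.22 ± 0.06 (adjusted p = 0.00846), but by 0.13 (0.387) without the DSF library marked S3. Against con, Eif1 was called lower in BSF (-0.21 ± 0.07) and BSF_C (-0.14 ± 0.06) and higher in LSF (0.23 ± 0.06), and totals alone gave -0.04 in BSF and turned the sign in BSF_C to 0.03. The call in BSF_C was lost without con replicate 3 (edgeR adjusted p = 0.0918), BSF_C replicate 2 (0.126) or BSF_C replicate 3 (0.0536). Of the Eif1 exon sequence, 11.24% is shared with other genes, pseudogenes among them.

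Eef1a1 was read at 11560 and 10980 CPM in BSF, at 11590, 11550 and 11340 in BSF_C, at 12720, 12670 and 12740 in LSF, at 12630 and 12280 in DSF and at 12490, 11850 and 13270 in con. Of its exon sequence, 16.32% is shared with other annotated genes in windows of 100 bases. BSF lay below LSF and DSF by 0.16 ± 0.04 (edgeR adjusted p = 0.00297), and without BSF replicate 2 by 0.12 (0.165). Its differences from con, -0.15 ± 0.04 in BSF and -0.12 ± 0.04 in BSF_C, turned with totals alone to 0.02 in BSF and 0.04 in BSF_C. That in BSF was not called without BSF replicate 2 (edgeR adjusted p = 0.0613). With only the groups compared in the fit, the calls against con were lost for Eef1a1 (edgeR adjusted p = 0.0543 in BSF and 0.0651 in BSF_C), for Eef2 (0.0902 in BSF and 0.103 in BSF_C) and for Eif1 in BSF_C (0.119).

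On the other side, Eif3b was higher in BSF than in LSF and DSF by 0.31 ± 0.06 (edgeR adjusted p = 1.76e-04), with no overlap, though not called without BSF replicate 1 (0.24, 0.0558). Eif5b, the GTPase that joins the subunits, was read at 42.80 and 39.34 CPM in BSF, at 43.24, 35.23 and 38.69 in BSF_C, at 33.44, 29.81 and 27.11 in LSF, at 35.39 and 29.95 in DSF and at 23.54, 19.13 and 16.12 in con. BSF was above LSF and DSF by 0.38 ± 0.10 (edgeR adjusted p = 0.00426; 0.112 without BSF replicate 1). Eif4g3, a scaffold paralog of eIF4G, was read at 25.71 and 27.52 CPM in BSF, at 22.97, 21.54 and 21.06 in BSF_C, at 19.68, 18.37 and 19.67 in LSF, at 23.81 and 22.30 in DSF and at 25.60, 21.83 and 28.79 in con. BSF was above LSF and DSF by 0.34 ± 0.11 (edgeR adjusted p = 0.0202). The Eif4g3 call was lost without BSF replicate 1 (0.0713), BSF replicate 2 (0.24) or the DSF library marked S3 (0.0639).

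Eif3f lay at 150.2 and 155.7 CPM in BSF, under its LSF and DSF libraries, a log2 difference of -0.19 ± 0.06. Within eIF3, Eif3f was lower while Eif3a (0.26), Eif3b (0.31) and Eif3j1 (0.28) were higher in BSF than in LSF and DSF. The Eif3f difference was -0.217 without BSF replicate 1 and -0.165 without BSF replicate 2. With totals alone Eif3f was no longer called (-0.145). Without either BSF replicate Eif3j1 was no longer called, and without BSF replicate 2 Eif3a was not (edgeR adjusted p = 0.0673). The Eif3j1 values without a BSF replicate were 0.26 (edgeR adjusted p = 0.142 without BSF replicate 1) and 0.30 (0.101 without BSF replicate 2).

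LSF and DSF differed in 15 members (23.4%, against 15.9% of all genes), 4 higher in LSF (against 8.97% of all genes) and 11 lower (against 6.91%). The median log2 difference was -0.10 over the members and 0.00 over all genes. Eif2b1, the regulatory alpha subunit of eIF2B, was read at 24.02, 28.14 and 24.45 CPM in LSF, 42.54 and 35.36 in DSF, and 36.74 and 31.98 in BSF. In BSF_C it was read at 36.24, 35.58 and 30.48 CPM and in con at 43.36, 44.08 and 50.91. LSF lay below every other library, and its log2 difference from DSF was -0.61 ± 0.11 (edgeR adjusted p = 3.6e-05), a call kept with each library left out.

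Eif5a was read at 526.8, 524.3 and 512.9 CPM in LSF, 651.4 and 623.2 in DSF, 614.2 and 582.1 in BSF, 618.1, 626.7 and 577.0 in BSF_C, and 617.1, 585.5 and 676.5 in con. Again LSF was lowest with no overlap, at a log2 difference of -0.29 ± 0.06 from DSF (edgeR adjusted p = 9.95e-05) and of -0.26 ± 0.05 from con (1.1e-05). Eef1g was lower in LSF than in DSF by 0.28 ± 0.06 (edgeR adjusted p = 8.6e-04), and Eif3c by 0.28 ± 0.07 (0.00163), the Eif3c call being lost without the DSF library marked S2 (0.145). Eif4ebp3 was higher in LSF by 0.80 ± 0.21 (edgeR adjusted p = 0.00538; 0.138 without the DSF library marked S3 and 0.0566 without LSF replicate 1). Eif1b was lower by 0.60 ± 0.17 (0.00981), but its edgeR adjusted p was 0.0587 without LSF replicate 2, 0.0517 without LSF replicate 3 and 0.112 without the DSF library marked S3. Without the DSF library marked S3, 7 members were called and none of them was higher. With the DSF library marked S2 left out, 10 were called, and with totals alone 4 were higher and 16 lower.

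**Figure D5:**
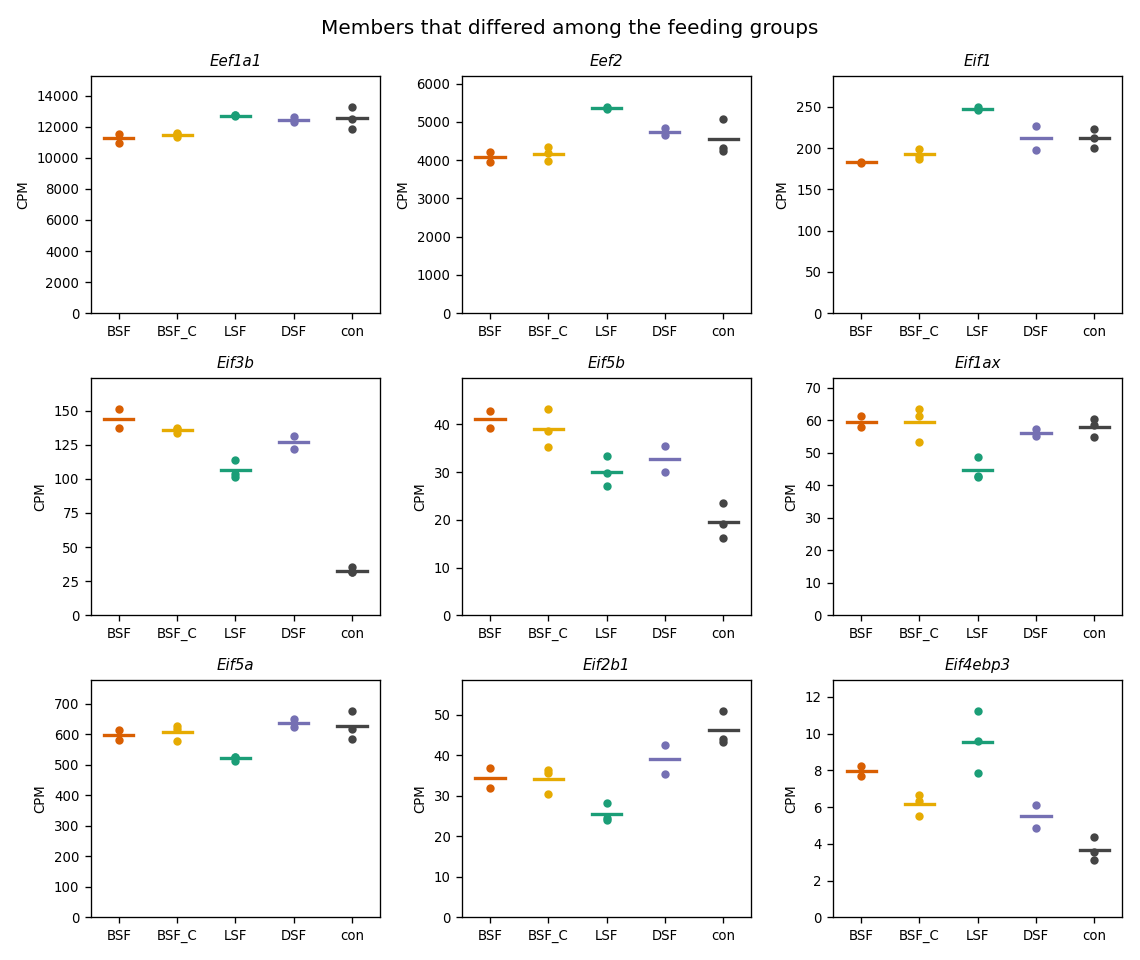
CPM of 9 members that differed among the feeding groups, in each library (points) with group means (lines), by group from BSF to con. Eef2 and Eif1 are highest in LSF, at 5336 to 5390 and 245.8 to 249.8 CPM, and Eif2b1 and Eif5a are lowest there, at 24.02 to 28.14 and 512.9 to 526.8 CPM.

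The marker sums given above also moved among the feeding groups. Those of fibroblasts and smooth muscle were 31.9 to 39.4 CPM in BSF, 40.2 to 68.5 in BSF_C, 93.3 to 116 in LSF, 80.1 to 95.6 in DSF and 24.6 to 26.2 in con, where Col1a2, Col3a1 and Lum were at 0. Those of heart muscle and leukocytes were higher and those of crypt and cycling cells lower in LSF than in BSF, and their part in these differences was not tested.

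BSF_C and BSF differed past the threshold in none of these genes. No member was called (0 of 64, against 0.133% of all genes, 0.105% higher and 0.028% lower) in edgeR's quasi-likelihood test, and 2 members had an unadjusted p under 0.05, as had 573 of all genes. DESeq2 called 2 genes and limma-voom 4, none of them a member. The log2 differences of the members ran between -0.36 and 0.62, with a median of 0.03 over the members and 0.01 over all genes. The smallest unadjusted p among the members, in the model of all genes, was that of Eif4g3 (0.0192), whose log2 difference was -0.29 ± 0.12. With 2 BSF libraries this does not show that the groups are alike.

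Genes next to these in the pathway, listed with earlier results known, were counted in the same fit. Of 19 genes of the mTORC1 pathway tested, 5 were higher and 12 lower than con for BSF, 5 higher and 13 lower for BSF_C, 4 higher and 12 lower for LSF, and 6 higher and 10 lower for DSF. Among all genes 38.3% were higher and 31.9% lower for BSF, 39.8% and 33.2% for BSF_C, 38.9% and 33.0% for LSF, and 36.6% and 31.1% for DSF, and the lists below are set beside the same shares. Genes that restrain mTORC1 went both ways. In BSF, Sesn2, a sensor, fell by 1.14 ± 0.13 and Tsc1 by 0.74 ± 0.10, whereas Tsc2, the partner of Tsc1, rose by 0.33 ± 0.11 and Sesn3 by 0.53 ± 0.12. Sesn1 was lower than con in BSF (-0.28 ± 0.09) and higher in DSF (0.59 ± 0.08). Larp1, the protein that binds TOP messages, fell by 0.40 ± 0.06 in BSF and by 0.72 ± 0.05 in LSF.

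Of 14 genes of the integrated stress response, which acts through eIF2, 1 was higher and 8 lower than con for BSF, 1 higher and 6 lower for BSF_C, 2 higher and 6 lower for LSF, and 3 higher and 6 lower for DSF. Ppp1r15a and Ppp1r15b, whose products return eIF2 to its active state, fell in BSF, Ppp1r15a by 2.69 ± 0.10 and Ppp1r15b by 0.97 ± 0.06. The 1 gene of the list that rose in BSF was Cebpb, a transcription factor, by 6.93 ± 0.16, and it was higher by 7.03 ± 0.15 in BSF_C, 7.13 ± 0.15 in LSF and 7.11 ± 0.16 in DSF. Ppp1r15a was also lower in BSF than in LSF and DSF, with a log2 difference of -0.95 ± 0.10 (edgeR adjusted p = 3.68e-10). A further list held 14 genes, of initiation, poly(A) binding, the kinases of eIF4E and enzymes that modify eIF5A, among others. Of these 14, 10 were higher and 2 lower than con for BSF, 11 higher and 2 lower for BSF_C, 8 higher and 2 lower for LSF, and 9 higher and 2 lower for DSF. Among them in BSF were Dohh, which finishes the hypusine of eIF5A (1.19 ± 0.10), and Mknk2, a kinase of eIF4E (-0.74 ± 0.07).

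Of 9 mitochondrial translation factors, 5 were higher and 1 lower than con for BSF, 5 higher and 2 lower for BSF_C, 4 higher and 2 lower for LSF, and 4 higher and 1 lower for DSF. Tufm, the mitochondrial counterpart of eEF1A, rose by 0.89 ± 0.07 in BSF and was lower in LSF than in DSF by 0.54 ± 0.06 (edgeR adjusted p = 4.97e-10). Of 3 termination factors, Gspt1 (eRF3) rose in all 4 groups, by 1.23 ± 0.09 in BSF, and Etf1 (eRF1) was lower in LSF. Gspt2 was called higher than con in BSF (1.21 ± 0.49), but BSF did not differ past the threshold from LSF and DSF (0.94 ± 0.38, edgeR adjusted p = 0.072), nor BSF_C from BSF (-0.75 ± 0.41, adjusted p of 1).

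Of the 78 ribosomal protein genes tested, 65 were higher and 2 lower than con for BSF, 66 higher and 2 lower for BSF_C, 65 higher and 3 lower for LSF, and 68 higher and 1 lower for DSF, with medians of 0.67 for BSF, 0.71 for BSF_C, 0.73 for LSF and 0.74 for DSF. The 9 members listed as TOP messages, from textbook knowledge, went both ways. Of these, 5 had a RefSeq start entry, and the motif stood at the annotated start of Eif3f but not of Eef1a1, Eef1b2, Eef2 or Eif4b. In BSF, 4 were higher (Eif3f, Eef1d, Eef1g and Eef1b2) and 3 lower (Eif4b, Eef2 and Eef1a1), with 4 higher and 3 lower for BSF_C, 5 higher and 1 lower for LSF, and 4 higher and 1 lower for DSF. Of the 3 lower in BSF, Eef2 and Eef1a1 changed sign with totals alone. In BSF against LSF and DSF, none of the 9 was higher and 4 were lower (Eef2, Eef1a1, Eif4b and Eif3f). Of the ribosomal protein genes 3 of 78 were lower and none higher. Among all genes, 9.87% were higher and 11.5% lower in that comparison. With totals alone, the difference was -0.107 for Eif4b and -0.145 for Eif3f, and neither was called. Without BSF replicate 2 it was -0.123 for Eef1a1, -0.181 for Eif4b and -0.165 for Eif3f.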

How the data were processed

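Epithelial cells of mouse jejunum were sorted and their polyadenylated RNA sequenced, per the labels' protocols. The authors deposited raw counts per gene symbol, with no normalization. FastQC 0.11.8, cutadapt 2.9, STAR 2.7.2e, DESeq2 1.32.0 and the builds GRCm38 and mm10 appear per the submitters' processing notes, with no settings. The annotation, strand setting and treatment of multimapping reads are not given in the sources used here, and genes that have near copies or antisense partners are uncertain for that reason. Of 21868 symbols, 21689 matched GENCODE M21, among them 63 of the 64 members (not Eef1aknmt), which gave coordinates, union exon lengths and the share of exon sequence found in another annotated gene.

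Groups followed the labels. The DSF columns are marked S2 and S3 while the titles number them 1 and 2, so they carry no replicate number. Genes were kept by filterByExpr (14300 genes, 99.91% of counts), scaled by trimmed means and tested two-sided with edgeR 4.0.16 under R 4.3.3, in 1 quasi-likelihood fit of the 13 libraries that had group as its 1 term and 8 residual degrees of freedom, with Benjamini-Hochberg adjustment over all genes. The common biological coefficient of variation was 4.87%. The SE printed is the absolute log2 fold change divided by the root of its F, which differs from a coefficient's own standard error. The fit was tested on simulated data. Replicates differed by more than counting noise, so no library was counted as a copy. Alternatives were limma 3.58.1 voom, DESeq2 1.42.0, other scalings, no filter, a fold threshold, only the groups compared, a replicate block and each library left out.

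Members, role lists, pathway lists and markers were chosen with earlier results of these data known. Values in every library are given for Eif3f, for the most abundant member of each role, and for the 3 called members that rose most and the 3 that fell most in BSF and LSF against con and in BSF against LSF and DSF, with at least 5 CPM. Others were named after their values were seen.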

Additional observations from a re-analysis of the deposited data

How the results depend on the processing

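The number of members called held within 1.5 times under DESeq2 size factors, library totals, limma-voom, no low-count filter and only the groups compared. With a log2 fold change of at least 1 also required, 14 members were called for BSF against con, 13 for BSF_C, 10 for LSF and 9 for DSF, and 0 in BSF against LSF and DSF and in LSF against DSF. The DESeq2 Wald test called 9 in BSF against LSF and DSF, and it was not run for the test of 4 groups together. With each library left out in turn, 39 to 46 members were called in BSF against con, 44 to 48 in BSF_C, 42 to 47 in LSF, 36 to 41 in DSF, 0 in BSF_C against BSF, 4 to 13 in BSF against LSF and DSF, 7 to 12 in LSF against DSF, and 21 to 26 among the feeding groups.

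Library totals alone reversed Eef2 (0.025) and Eef1a1 (0.024) in BSF against con, and Eef2 (0.042), Eef1a1 (0.043) and Eif1 (0.03) in BSF_C against con. They also moved the share of called genes that were higher to 60.9% (from 46.2%) in BSF against LSF and DSF and to 38.0% (from 56.5%) in LSF against DSF. Of 2533 values of 207 called differences and Eif3f differences under the alternatives, 2369 kept direction and call, 158 lost the call, 1 gained it and 5 reversed. The cause was not tested.

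Replicate numbers showed no pairing of the libraries, with no correlation of the 15 same-numbered pairs above 0.1 (-0.204 to 0.0773, and -0.153 to 0.189 for other pairs). The correlations are of deviations from means of 2 or 3 libraries, which constrains them. They therefore cannot exclude a pairing. With a replicate block and DSF left out, 43 members were called in BSF against con, 45 in BSF_C, 44 in LSF and 0 in BSF_C against BSF. No paired analysis was possible for comparisons with DSF because its columns carry no matching number. Genes under 5 CPM, and differences resting on 2 BSF or 2 DSF libraries, are the least certain.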
